A study of Mus musculus with 6 samples.

Results

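Eicosanoids are lipid mediators made from fatty acids that phospholipases A2 release from membranes. Lipoxygenases turn arachidonic acid into leukotrienes, cyclooxygenases turn it into prostaglandins and thromboxane, and a family of G protein-coupled receptors reads the products. In kidney the pathway is known for its part in blood flow, in the handling of salt and water, and in the calling of leukocytes into inflamed tissue. Of this pathway 10 genes were examined, chosen by name. They were Pla2g2d and Pla2g4a, which release fatty acids, Alox5, Alox5ap, Alox15, Lta4h and Ltc4s of the lipoxygenase branch, and Ptgs1, Ptgs2 and Ptges of the cyclooxygenase branch. Every probe that carries one of these gene names was used, which gave 17 of the 56605 probes on the array, for 10 of its 36870 gene names. A test was possible for 16 probes of 9 genes, among 39924 tested probes in all, and Alox15 was the gene left without one.

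TA was performed on whole kidneys of female mice at 6 months of age, with 3 mice of the strain MRL/MpJ (MRL) and 3 mice of MRL/MpJ-Fas lpr/lpr (LPR). LPR mice carry the lpr mutation of Fas, a death receptor of lymphocytes, on the same background and develop a lupus-like autoimmune disease with nephritis, and MRL mice served as the control. MRL mice are not free of immune changes at this age. Each mouse gave 1 array with 1 colour, and no mouse received a treatment. The comparison asks which transcripts of the pathway differ in the diseased kidney. In whole kidney, more cells of a type and more RNA per cell cannot be told apart.

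A level is given here as the log2 of the intensity over the 75th percentile of the array, so that 0 is a spot as bright as that percentile. A change is LPR minus MRL on the log2 scale, with the standard error from limma, and group values are means with the SD of 3 mice. A spot is called well above background by the scanner software. Levels of different probes are not compared, since probes bind with different strength. The genes were proposed with this comparison known, so their changes are a description and no p-value is given for them. The numbers of the mice are taken as names only, since the sample titles give no pairing.

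Fas was measured first. Its brighter probe, A_55_P2091676, changed by -0.47 (standard error 0.24, adjusted p = 0.234 by limma), and its dimmer probe, A_52_P73385, rose above background in 0 of 3 MRL and 3 of 3 LPR mice, a rise of at least 1.47-fold (adjusted p = 0.0338 by limma). Where these probes lie relative to the mutation was not examined, so they do not check the genotype. On each array 69.6% to 73.5% of the spots passed the background flag, and no spot was saturated. Arrays of 1 group correlated at 0.990 to 0.993 over the tested probes and arrays of different groups at 0.961 to 0.971. The median change of all tested probes was -0.14. All 3 MRL arrays and LPR 1 lay in column 1 of the slide, and LPR 2 and LPR 3 in column 2, so a fit with the column as a block, like a comparison within column 1, takes the change from LPR 1 against the MRL mice.

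Selected probes are shown by 30 of their 60 bases, since the probe is what defines the transcript measured. Bases 16 to 45 are printed for Alox5ap A_66_P105854 and bases 31 to 60 for the others, while the positions given span the whole probe. Positions are on the mouse build mm9, 5′ to 3′ in the sense of the gene, and capitals mark the hexamer AATAAA of polyadenylation signals where the probe holds it. The Pla2g2d and Alox5ap probes are shown because both genes differed between the strains, and the Ptges probes because they gave unlike changes for 1 gene.
Pla2g2d A_51_P232281, chr4:138337867-138337926, + strand: tctgtctgagtcagaaaatagccactttaa
Pla2g2d A_55_P2173897, chr4:138336981-138337040, + strand: caaagagccctcttAATAAAcaactttcac
Alox5ap A_51_P235687, chr5:150099347-150099406, + strand: gcttctgctcctcttcaagctgtagatgct
Alox5ap A_66_P105854, chr5:150099572-150099631, + strand: gtgttttcctaaAATAAAgggtatagacaa
Ptges A_55_P1974193, chr2:30744995-30745054, - strand: agtcagccccaattaaatgctttcctttat
Ptges A_51_P312327, chr2:30747838-30747897, - strand: gaggacatccttcacctcacaaaatgcctt

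The 2 Pla2g2d probes lie 826 bases apart and are annotated to different RefSeq transcripts, NM_011109 for A_51_P232281 and NM_001347230 for A_55_P2173897. The 2 Alox5ap probes lie 165 bases apart, on NM_009663 and NM_001308462. All 3 Ptges probes belong to NM_022415 and are spread over a stretch with gaps of 2783 and 316 bases. The hexamer was searched only in the orientation printed. It stood in 2 of the 17 probes, the second of Pla2g2d and the second of Alox5ap, and in 9.8% of all 56605 probes. Of the 17 probes, 14 have a RefSeq accession, and all 14 match the same symbol in a current RefSeq list, while the second probes of Pla2g4a, Lta4h and Ptgs1 are annotated only to Ensembl transcripts. The exon in which each probe lies was not analysed here.

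Across the pathway genes, Pla2g2d and Alox5ap were far higher in LPR kidneys by both of their probes, and no other measured member passed the threshold. By limma, with the brightest tested probe of each gene, 2 of 9 members were higher at an adjusted p under 0.05, where 7.12% of all genes were, and 0 of 9 were lower, where 5.47% of all genes were. Counted by probe, 4 of 16 were higher, where 6.53% of all tested probes were, and 0 of 16 were lower, where 6.17% were. At an unadjusted p under 0.05 limma had 3926 of all 39924 tested probes higher and 8200 lower, and the methods' test 3578 and 7175. Of the 16 member probes, 5 were higher and 3 lower by limma, and 4 and 0 by the methods' test. By the brightest probe, 3 of 9 members were higher and 1 lower by limma, and 2 and 0 by the methods' test. These counts describe genes chosen on this comparison. The median change of the 9 members was 0.03, and that of all genes was -0.12.

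**Figure D1:**
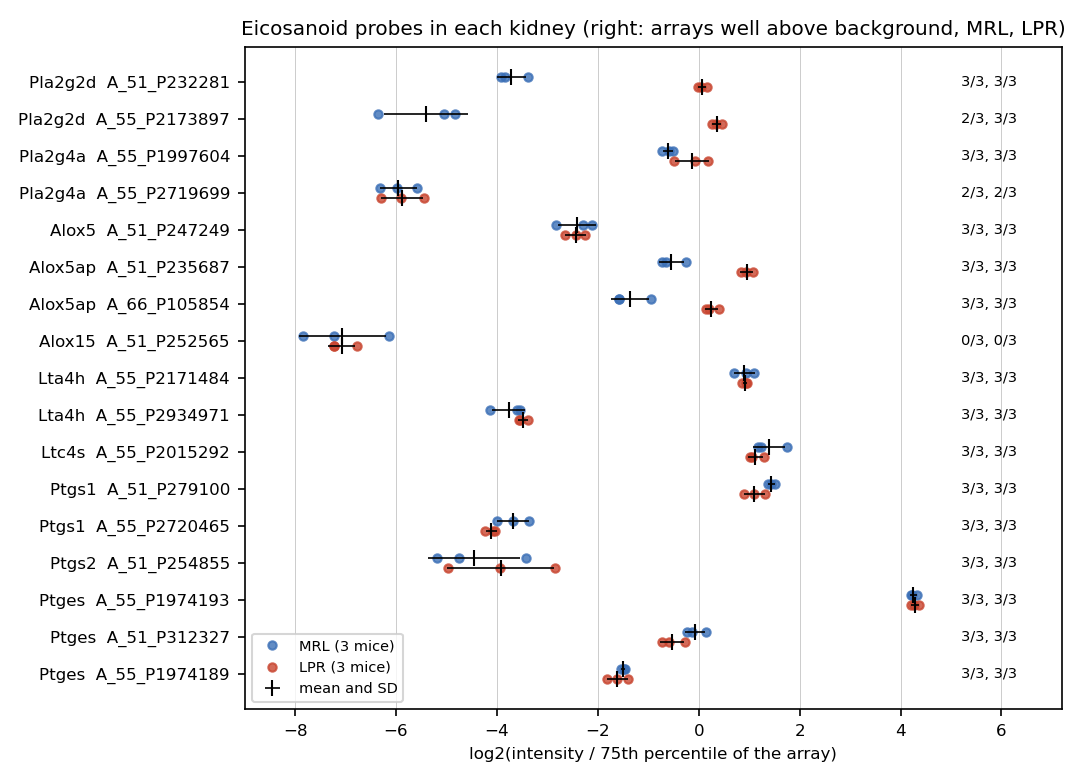
Level of each of the 17 eicosanoid probes in each kidney, as log2 of the intensity over the 75th percentile of the array (horizontal axis). Blue points are the 3 MRL mice, red points the 3 LPR mice, black bars the mean and SD, and the figures at the right give the arrays well above background in MRL and in LPR. The groups stand far apart for both probes of Pla2g2d and both of Alox5ap, and the remaining probes lie close together or overlap.

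Pla2g2d encodes a secreted phospholipase A2 that is known from dendritic cells and macrophages of lymphoid tissue, where it releases polyunsaturated fatty acids and restrains inflammation. With A_51_P232281, the levels in MRL mice were -3.84, -3.38 and -3.92, and those in LPR mice 0.16, -0.01 and 0.05. Before scaling, the same spots had intensities of 51.6, 68.4 and 46.8 in MRL mice and 1050, 732 and 785 in LPR mice. Every LPR kidney was far above every MRL kidney, and the LPR mice lay closer together than the MRL mice. The group levels were -3.71 ± 0.29 (SD, n = 3) and 0.06 ± 0.09 (SD, n = 3), a change of 3.78 (standard error 0.16) or 13.7-fold.

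The other Pla2g2d probe, A_55_P2173897, gave levels of -5.04, -4.83 and -6.36 in MRL mice and 0.34, 0.45 and 0.27 in LPR mice. Its intensities were 22.3, 25.1 and 8.6 in MRL mice and 1195, 1013 and 915 in LPR mice. Its signal passed the background flag in 2 of 3 MRL mice, with MRL 3 the exception, and in 3 of 3 LPR mice. The change was 5.77 (standard error 0.38), or 54.4-fold, with an SD of 0.83 among MRL and 0.09 among LPR mice. Both probes placed all LPR mice above all MRL mice, with fold changes of unlike size. Normexp background correction with an offset of 50 gave changes of 2.76 and 3.75 for the first and the second probe. Within slide column 1 the changes were 3.87 and 5.75. Among all tested probes, the changes of the first and the second probe stood at the percentiles 99.2 and 99.8.

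Pla2g4a encodes the cytosolic phospholipase A2 that frees arachidonic acid for both branches of the pathway. Its brighter probe, A_55_P1997604 (NM_008869, chr1:151676814-151676873), gave -0.59, -0.72 and -0.52 in MRL mice and 0.18, -0.48 and -0.08 in LPR mice. The groups did not overlap, but LPR 2 came within 0.04 of the highest MRL mouse. The change was 0.48 (standard error 0.18), and it did not pass the threshold. Without LPR 2 the gene passed it, and within slide column 1, where LPR 1 stands alone, the change was 0.79. The dim second probe, A_55_P2719699, was well above background in 2 of 3 mice of each group and changed by 0.07 (standard error 0.26), with the groups overlapping. It lies 89.2 kb away on an Ensembl transcript.

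Alox5 encodes 5-lipoxygenase, the enzyme that starts leukotriene synthesis. Its probe A_51_P247249 gave -2.84, -2.29 and -2.12 in MRL mice and -2.25, -2.42 and -2.65 in LPR mice, well above background in every kidney. The groups overlapped, with all 3 LPR mice inside the MRL range. The change was -0.03 (standard error 0.21), and its sign turned in 6 of the alternatives.

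Alox5ap encodes FLAP, the membrane protein that hands arachidonic acid to 5-lipoxygenase. Probe A_51_P235687 gave -0.73, -0.64 and -0.25 in MRL mice and 0.94, 1.08 and 0.83 in LPR mice. Again every LPR kidney was above every MRL kidney, and MRL 3 was the highest of the MRL mice. The group levels were -0.54 ± 0.25 (SD, n = 3) and 0.95 ± 0.13 (SD, n = 3), a change of 1.49 (standard error 0.15) or 2.81-fold. With A_66_P105854 the levels were -1.58, -1.58 and -0.94 in MRL mice and 0.21, 0.40 and 0.14 in LPR mice, again with no overlap and with MRL 3 the highest of its group. That probe changed by 1.62 (standard error 0.20) or 3.06-fold. Within slide column 1 the changes were 1.48 and 1.57, and Alox5ap then missed the threshold. The Alox5ap changes stood at the percentiles 96.6 and 96.8 of all tested probes. The 2 partners of leukotriene synthesis therefore gave unlike values in the same kidneys, 1.49 for Alox5ap and -0.03 for Alox5, and this difference was not tested.

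Alox15 encodes 12/15-lipoxygenase, known from resident macrophages and eosinophils. Its probe A_51_P252565 (NM_009660, - strand of chromosome 11), whose 60 bases are spread over 225 bases of the genome, was well above background on 0 of 6 arrays. The intensities ran from 3.1 to 10.1 in MRL mice and from 4.9 to 6.9 in LPR mice. No change is given for it, and a difference in Alox15 was not detectable with this probe.

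Lta4h and Ltc4s divide the product of Alox5 between leukotriene B4 and the cysteinyl leukotrienes. The brighter Lta4h probe, A_55_P2171484 (NM_008517), gave 0.69, 0.93 and 1.09 in MRL mice and 0.86, 0.94 and 0.95 in LPR mice, so that all LPR values fell within the MRL range. It changed by 0.01 (standard error 0.13), a value whose sign turned in 5 alternatives. The second, A_55_P2934971, lies 20.6 kb away and changed by 0.27 (standard error 0.18) with overlapping groups. Ltc4s, by A_55_P2015292 (NM_008521), gave 1.23, 1.18 and 1.75 in MRL mice and 1.02, 1.29 and 1.06 in LPR mice. MRL 3 was the highest of the 6 mice, the groups overlapped, and the change was -0.26 (standard error 0.18).

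Ptgs1 encodes cyclooxygenase-1, the constitutive enzyme of the prostanoid branch. A_51_P279100 (NM_008969) gave 1.44, 1.37 and 1.51 in MRL mice and 1.31, 0.89 and 1.10 in LPR mice. All LPR mice were below all MRL mice, with LPR 1 the nearest to them. The change was -0.34 (standard error 0.13). The second Ptgs1 probe, A_55_P2720465, 10.7 kb away on an Ensembl transcript, changed by -0.43 (standard error 0.17), also without overlap. Neither passed the threshold, and within slide column 1 the brighter probe changed by -0.13.

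Ptgs2 encodes cyclooxygenase-2, which is inducible and in kidney is known from the macula densa and medullary interstitium. Its probe A_51_P254855 (NM_011198) gave -3.43, -4.76 and -5.18 in MRL mice and -2.85, -4.98 and -3.94 in LPR mice. The groups overlapped over most of their range, and the spread within a group was wide, with SDs of 0.91 and 1.06. The SD pooled over both groups stood at the percentile 99.4 of all tested probes, against 42.4 for the brighter Ptgs1 probe. The change was 0.53 (standard error 0.62). It was -0.0013 without LPR 1 and 1.60 within slide column 1, where LPR 1 is the only LPR mouse.

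Ptges encodes the inducible microsomal prostaglandin E synthase. The brightest probe, A_55_P1974193, gave 4.32, 4.20 and 4.23 in MRL mice and 4.27, 4.21 and 4.36 in LPR mice, a change of 0.03 (standard error 0.10) with overlapping groups. Probe A_51_P312327 of the same transcript gave -0.24, -0.14 and 0.14 in MRL mice and -0.58, -0.28 and -0.73 in LPR mice. Those groups did not overlap, by a margin of 0.04, and the change was -0.45 (standard error 0.16). Probe A_55_P1974189 changed by -0.11 (standard error 0.13). The probes of Ptges therefore did not give 1 common value, and none of the 3 passed the threshold.

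Read by overlap alone, LPR mice were all above MRL mice for 5 of the 16 tested probes, where this held for 11.0% of all tested probes, and all below for 3 of 16, where it held for 26.9%. The 5 were the pairs of Pla2g2d and Alox5ap and 1 probe of Pla2g4a, and the 3 were both of Ptgs1 and 1 of Ptges.

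**Figure D2:**
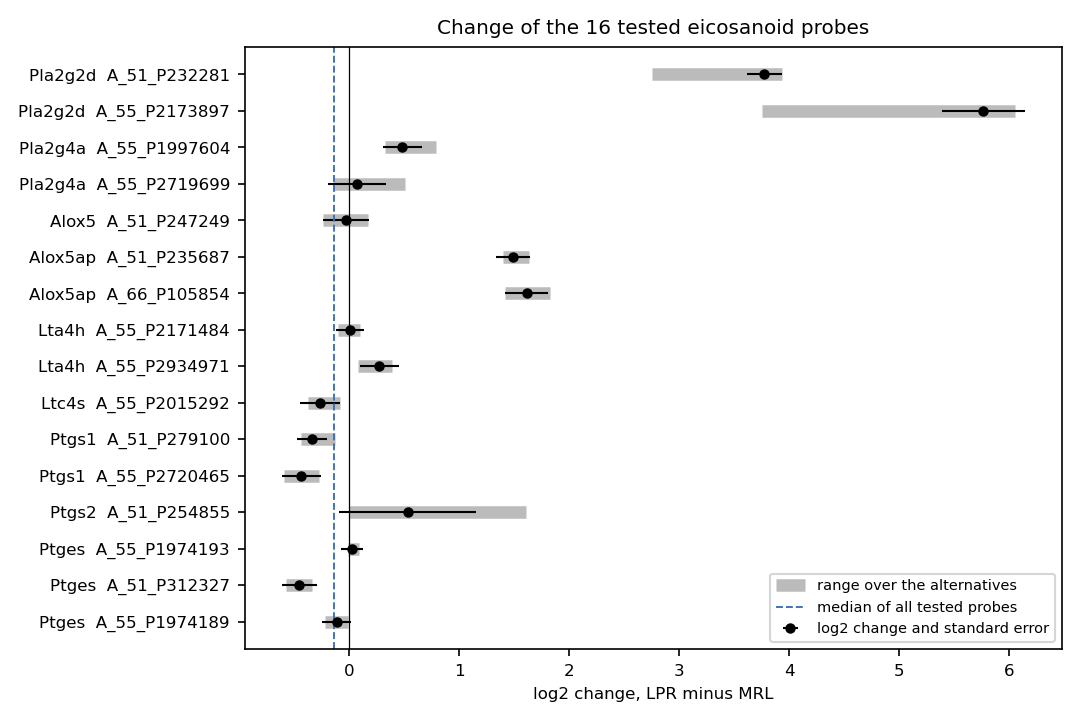
Change of the 16 tested eicosanoid probes, LPR minus MRL on the log2 scale (horizontal axis). Points are the changes with bars of 1 standard error, and the dashed line is the median of all tested probes. Grey bands are the range over the alternatives, which include leaving out each mouse and fits by slide column as well as other processing. The lowest end among the bands of the 4 Pla2g2d and Alox5ap probes is 1.396, without MRL 1. That of Ptgs2 runs from -0.0013, without LPR 1, to 1.60, with the slide column as a block.

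By the distance between profiles over the 6 arrays, each centred on its own mean, the genes nearest to Pla2g2d (A_51_P232281) among 25798 were Il2rb, Mmp3, Itgax, Cd6 and Clec7a. The root mean square distance was 0.08 for Il2rb and 0.14 for Clec7a. Those nearest to Alox5ap were Dok3, Gngt2, Lgals3bp, Ppp1r18 and Oas1f, with distances of 0.06 for Dok3 and 0.09 for Oas1f. As the profiles were not scaled, near genes are those with a change of like size. The changes were 3.63 to 3.82 for the genes near Pla2g2d and 1.41 to 1.57 for those near Alox5ap.

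The rest of the pathway was read from 70 further genes, of which 63 were tested. Of these, 11 were higher in LPR kidneys, 3 were lower and 49 did not pass (limma, adjusted p under 0.05), beside the 7.12% and 5.47% of all genes. Their median change was -0.07. The lists were drawn up with earlier results of these data known. Before adjustment, at a p under 0.05, limma had 3926 of all 39924 tested probes higher and 8200 lower. These numbers are the background for the counts by role at that threshold. The 7 genes not tested were Pla2g2a, Pla2g10, Pla2g4e, Pla2g4f, Alox8, Ptgdr and Ptgdr2.

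Of 16 tested phospholipases A2 and their receptor, 3 were higher and 0 lower in limma after adjustment, beside 7.12% and 5.47% of all genes. At an unadjusted p under 0.05, 4 were higher and 1 lower by limma, and 3 and 0 by the methods' test. Pla2g7, the plasma-type enzyme that breaks down platelet-activating factor, rose from -0.11, 0.07 and 0.35 in MRL mice to 2.04, 1.44 and 1.96 in LPR mice, a change of 1.71 (standard error 0.20, adjusted p = 0.0021 by limma). Its 2 other probes changed by 1.76 and 1.72. Pla2g15, the lysosomal enzyme, was higher by 0.97 (standard error 0.11, adjusted p = 0.0021 by limma). Pla2g16, a phospholipase A2 abundant in fat, was higher by 0.86 (standard error 0.10, adjusted p = 0.0026 by limma) with its brightest probe, while its other probes changed by 0.79 and 0.14 and did not pass. Within slide column 1 the Pla2g16 call was lost with a change of 0.79 (adjusted p = 0.0673 by limma). The secreted enzymes Pla2g2e and Pla2g5 gave changes of -0.17 and 0.38, which did not pass.

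Around the leukotrienes, 2 of 6 conversion genes and 2 of 7 receptors of leukotrienes and other lipid mediators were higher in limma after adjustment. In either list 0 were lower, beside 7.12% of all genes higher and 5.47% lower. At an unadjusted p under 0.05, 2 and 3 genes of these lists were higher and 1 of each lower, by limma and by the methods' test. Mgst2, a microsomal glutathione transferase that can make leukotriene C4, changed by 1.33 (standard error 0.14, adjusted p = 0.0015 by limma). Dpep2, a dipeptidase that turns leukotriene D4 into E4, rose by 2.35 (standard error 0.25, adjusted p = 0.0015 by limma), with a signal above background in 2 of 3 MRL mice. Cysltr2, a receptor for cysteinyl leukotrienes, had levels of -5.60, -5.60 and -5.49 in MRL mice and -3.40, -3.84 and -3.65 in LPR mice, a change of 1.93 (standard error 0.14, adjusted p = 0.0002 by limma). With normexp, Dpep2 and Cysltr2 passed with smaller changes of 0.86 and 0.57. Cysltr1 gave 1.10 (standard error 0.29) and fell just short (adjusted p = 0.0513 by limma), and the leukotriene B4 receptor Ltb4r1 gave 0.26 (standard error 0.18).

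Fpr2, a receptor for formyl peptides that also binds lipoxin A4, gave -2.48, -2.31 and -0.89 in MRL mice and 1.96, 1.47 and 1.43 in LPR mice. MRL 3 stood above the other MRL mice and below every LPR mouse. The change was 3.51 (standard error 0.41, adjusted p = 0.0023 by limma), or 11.4-fold, and the second probe gave 5.19 with 1 of 3 MRL signals above background. Within slide column 1 the change was 3.86 and the call was lost (adjusted p = 0.0738 by limma). Fpr2 has close relatives in the mouse genome, and cross-binding of its probes was not examined. Of the 4 tested lipoxygenases besides the members 0 passed in limma, and their median change was -0.45, against -0.12 for all genes. At an unadjusted p under 0.05, 3 were lower by limma and by the methods' test. By limma, 8200 of all 39924 tested probes were lower at that threshold.

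In the prostanoid branch, 1 of 9 synthases and 3 of 7 receptors were higher in limma after adjustment, and 0 of either were lower by their brightest probe. Of all genes, 7.12% were higher and 5.47% lower. The count of synthases is near that share, so nothing is read from it. At an unadjusted p under 0.05, 1 synthase and 3 receptors were higher and 1 of each lower, by limma and by the methods' test. Hpgds, the prostaglandin D synthase of blood cells, stood above background in 0 of 3 MRL and 3 of 3 LPR mice. It was at least 3.78-fold higher (adjusted p = 0.0083 by limma), against the lowest signal that counts as well above background on the MRL arrays or the probe's own signal, whichever was greater. With normexp it passed with a log2 change of 0.56, which is below that bound, and its call was lost within slide column 1 (adjusted p = 0.0986 by limma) and with the methods' test after adjustment. The receptors were Ptger2 with 1.78 (standard error 0.24, adjusted p = 0.0041 by limma), Ptger4 with 0.97 (standard error 0.11, adjusted p = 0.0018 by limma) and the prostacyclin receptor Ptgir with 0.75 (standard error 0.14, adjusted p = 0.0188 by limma). For Ptger2, 1 of 3 MRL signals was above background. The Ptgir call was lost without MRL 1, without MRL 2, without LPR 1 and with the slide column as a block, where the Ptger2 call was lost too (adjusted p = 0.123 and 0.0706 by limma). With normexp Ptger2 passed with a change of 0.43. Within slide column 1 the Ptger4 change was 0.90 and the call was lost (adjusted p = 0.0593 by limma). The second tested probe of Ptger4 changed by 1.09.

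For Ptger3 and Ptgfr, receptors of prostaglandins E2 and F2 alpha, probes of 1 gene gave unlike calls. The brightest changed by -0.07 and -0.19 and did not pass, and a dimmer one of each was lower by limma, with changes of -0.91 (adjusted p = 0.0092) and -0.69 (adjusted p = 0.0408). The synthases Ptgds, Ptgis and Tbxas1 gave -0.46, -0.24 and 0.09, which did not pass.

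Lower calls came from the genes of breakdown and transport, with 2 of 7, and from the cytochrome P450 branch, with 1 of 7. Over all genes 5.47% were lower. Ptgr2, a prostaglandin reductase, was lower in LPR mice, with a change of -0.42 (standard error 0.11, adjusted p = 0.0441 by limma). Abcc1, an exporter of leukotriene C4, changed by -0.63 (standard error 0.15, adjusted p = 0.0379 by limma), and its second probe by -0.37, which did not pass. Cyp2j5, an abundant epoxygenase of kidney tubules, changed by -0.46 (standard error 0.10, adjusted p = 0.0318 by limma) and by -0.72 with a second probe. All 3 lower calls by the brightest probe were lost with a block for the slide column or for the replicate number, with dim probes kept, and without any 1 of MRL 1, MRL 2, MRL 3 and LPR 1.

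**Figure D3:**
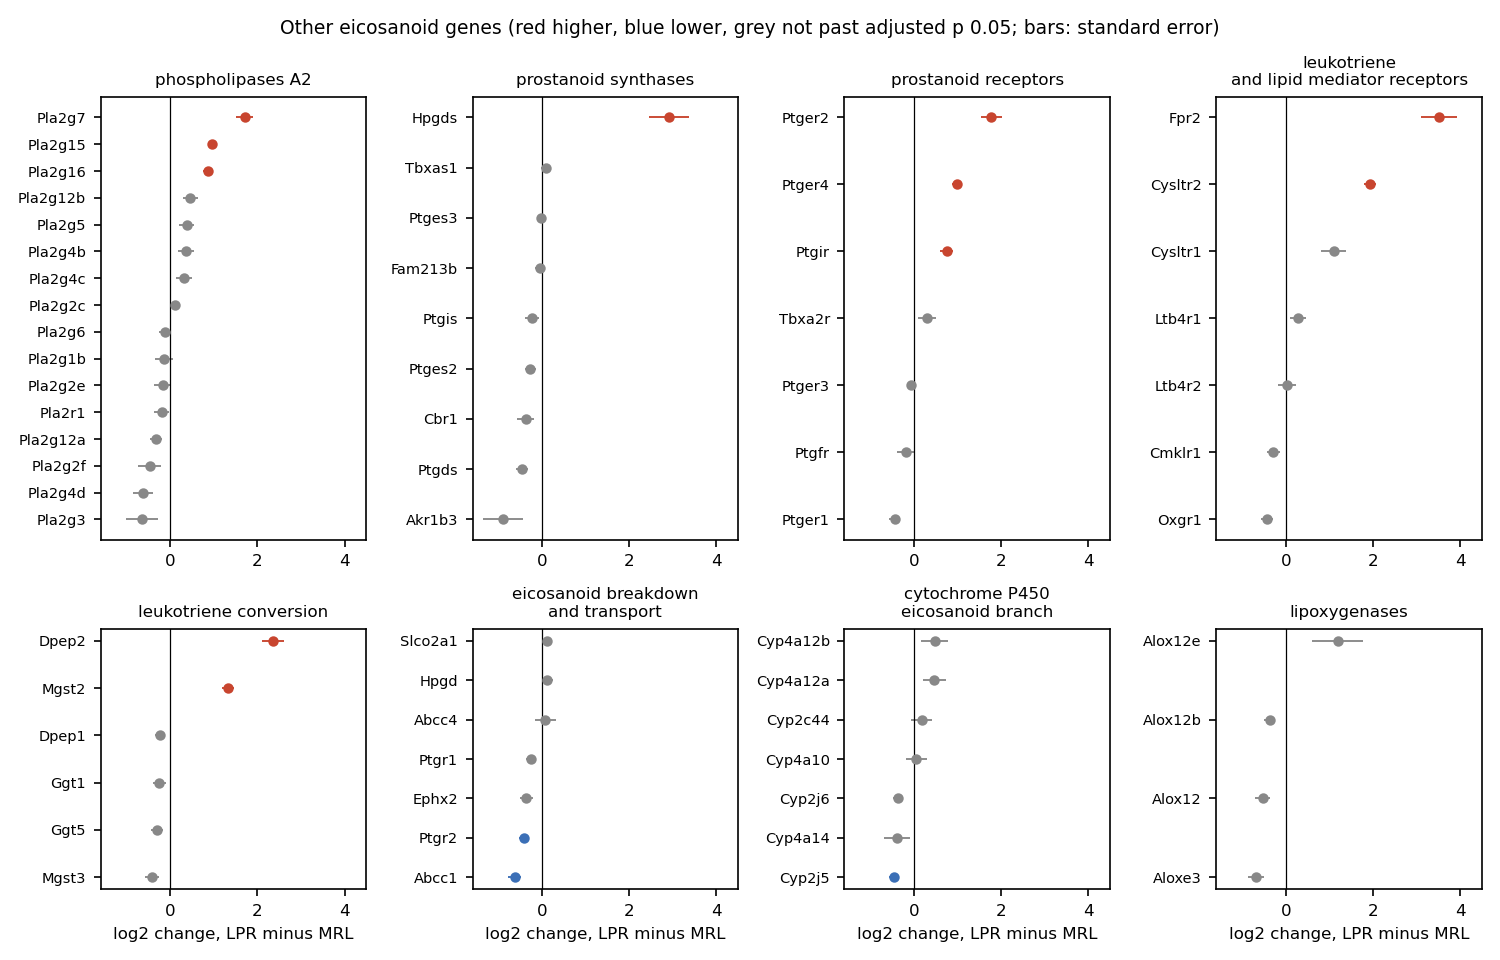
Change of the 63 further eicosanoid genes, LPR minus MRL on the log2 scale (horizontal axes), 1 panel per role, with bars of 1 standard error. Red genes were higher and blue genes lower at a limma adjusted p under 0.05, and grey genes did not pass. Of the 11 red genes, 3 are phospholipases A2 and 5 are receptors, and the 3 blue genes are Ptgr2, Abcc1 and Cyp2j5.

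Leukocyte markers moved with the same groups. Their calls, and those of the other marker lists, stand beside 7.12% of all genes higher and 5.47% lower (limma, adjusted p under 0.05). Of 8 macrophage and monocyte markers 6 were higher in LPR kidneys. Their summed level, in units of the 75th percentile of the array, was 35.0 to 42.0 in MRL mice and 122 to 129 in LPR mice. Such a sum adds probes that bind with different strength, so the brightest weigh most and it does not measure cell number. Here most of the rise came from Lyz2, with mean levels of 3.20 in MRL and 6.35 in LPR mice. The 4 brightest were Lyz2, Csf1r and Cd68, which were 8.88-fold, 1.46-fold and 8.59-fold higher, and Itgam, which did not pass with a change of -0.09. Of 7 dendritic cell markers 5 were higher, and their sum was 0.51 to 0.58 in MRL mice and 2.99 to 3.58 in LPR mice. T cell markers were higher for 5 of 6, with sums of 2.46 to 2.86 and 8.21 to 9.62, and B cell markers for 3 of 5 with 1 lower, with sums of up to 1.61 in MRL mice and 4.24 to 5.48 in LPR mice. Of 2 markers of large peritoneal macrophages 1 was higher, Timd4, by at least 1.17-fold. Its signal was dim, with 0 of 3 MRL mice well above background and intensities of 12.7 to 19.8 in LPR mice. The part of these cells in the changes of the eicosanoid genes was not tested.

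The same was read for cells known for Alox5, Alox15, Hpgds or the thromboxane branch. Of 9 neutrophil markers 3 were higher, namely S100a8 by 2.48, S100a9 by 2.28 and Mpo by 0.65. Camp, Ltf and Ngp changed by 1.20, 1.33 and 1.09 without overlap of the groups, but did not pass. At an unadjusted p under 0.05, 6 of the 9 were higher by limma and 5 by the methods' test, and 0 were lower. By limma, 3926 of all 39924 tested probes were higher at that threshold and 8200 lower. The summed level overlapped, with 40.5 to 54.1 in MRL mice and 46.8 to 50.7 in LPR mice. Most of that sum was its brightest gene, Csf3r, with a change of -0.07, so the sum says little about the other markers. Of 4 tested eosinophil markers 2 were higher, Prg2 by at least 10.4-fold and Ccr3 by 1.85, while Epx was above background on 0 arrays. Of 4 tested mast cell markers 0 passed in limma, 1 was lower at an unadjusted p under 0.05 by limma and by the methods' test, with sums of 0.39 to 0.50 and 0.32 to 0.34, and Tpsab1 and Fcer1a were above background on 0 arrays. Of 5 platelet markers 1 was higher, Pf4 by 1.91, and 1 was lower at an unadjusted p under 0.05 by limma and by the methods' test. Itga2b and Gp1bb gave -0.31 and -0.32, and Ppbp and Gp9 gave 0.70 and 0.42 with overlapping groups. The sums were 0.40 to 0.52 and 0.92 to 1.52, and their rise was that of Pf4, the brightest of the list, not of the list as a whole.

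Kidney cells showed smaller shifts. The arrays held bright proximal tubule markers, with sums of 564 to 611 in MRL mice and 435 to 486 in LPR mice, and 2 of 6 were lower. Of 4 markers of the thick ascending limb and macula densa 0 passed in limma, with a median change of -0.47 and 2 lower at an unadjusted p under 0.05 by limma and by the methods' test. Of 4 collecting duct and 5 podocyte markers 0 passed, with medians of 0.04 and 0.09, and at an unadjusted p under 0.05 limma had 0 and 1 of them higher and the methods' test 0 and 0. Of 4 endothelial markers 1 was lower after adjustment, and 2 at an unadjusted p under 0.05 by limma and by the methods' test. Of the 6 proximal tubule markers 4 were lower at that threshold by both tests, beside 8200 of all 39924 tested probes by limma.

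**Figure D4:**
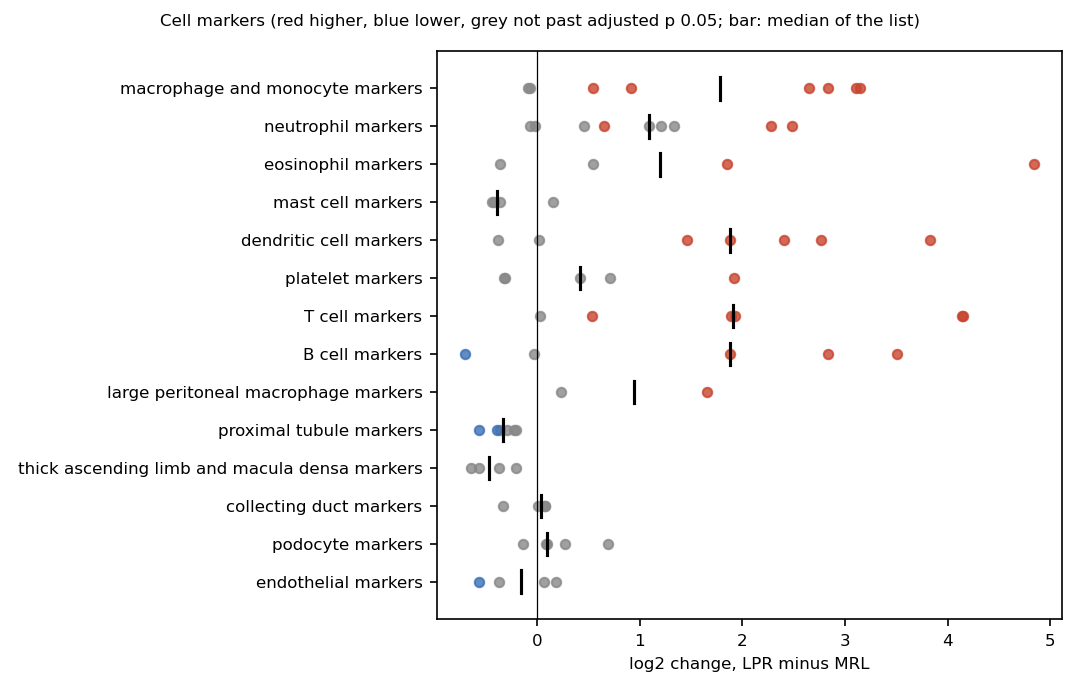
Change of each tested cell marker, LPR minus MRL on the log2 scale (horizontal axis), 1 line per list. Red markers were higher and blue markers lower at a limma adjusted p under 0.05, grey ones did not pass, and the black bar is the median of the list. The medians of the macrophage and dendritic cell lists are 1.78 and 1.88, and that of the proximal tubule list is -0.33.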

How the data were processed

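Total RNA of 6 kidneys, 3 per strain, was labelled with Cy3 for 6 arrays on 1 slide (Agilent SurePrint G3, mouse). The paper and the sample labels name different RNA kits. The authors deposited, for each spot, the background-subtracted intensity of Agilent Feature Extraction 12.0.3.1 (per the submitters' processing notes), detrended within but not normalized between arrays, together with flags for outlier, saturated and well above background spots. A deposited value table holds the same intensities as a ratio to a percentile of each array, on a linear scale. Neither table was pooled over mice.

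Control spots and outlier spots (73 to 90 per array) were left out, log2 intensities were shifted by the 75th percentile of each array (706 to 942), and replicate spots were averaged. Tests were run on probes flagged well above background on at least 3 of 6 arrays. The R package limma 3.58.1 (R 4.3.3) compared the strains, two-sided, at an adjusted p under 0.05 (Benjamini-Hochberg, all tested probes). The brightest tested probe stands for a gene. In simulated data of 39924 probes with 200 changed, 140 were recovered, 51 of 100 with a change of 1 and 89 of 100 with a change of 2 on the log2 scale, with 11 false calls. In the data 6.53% of tested probes were called higher and 6.17% lower, a larger share than was changed there. The adjusted p depends on that share, so these recovery rates need not hold for the data. The number of arrays limits the precision. The members, lists and tests were chosen with earlier results of these data known. Named are all probes of the members, all other eicosanoid genes that passed, Fas, the brightest markers and the 5 nearest genes of Pla2g2d and Alox5ap, and beyond this rule some genes named after their values were seen. Tried as alternatives were another background correction (normexp, offset 50), scaling, filter, floor, fit, block, the methods' test, the mean of a gene's probes and leaving out each mouse. Sequences came from the scanner files, and figures were drawn with matplotlib 3.10.9.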

Additional observations from a re-analysis of the deposited data

How the results depend on the processing

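With 3 mice per strain, a change of a dim probe such as Ptgs2 or the second probe of Pla2g4a is poorly fixed, and a fold against an MRL signal near background depends on how background is treated. The members were chosen with this comparison known, so their calls under the alternatives describe the settings and add no support to the changes. Pla2g2d passed as higher under all 22 alternatives. Alox5ap passed under all but 1, the comparison within slide column 1, where LPR 1 is alone and assumed to vary like the MRL mice. Its changes there were 1.48 and 1.57, and 1 member was then called higher. Leaving out 1 mouse in turn gave 2 to 3 members higher, with Pla2g4a added without LPR 2, and 0 to 0 lower. Of 302 values of member probes under the alternatives, 292 moved by less than the SD between mice, and 10 moved by more. The sign turned in 16 of them, in 5 probes of Alox5, Lta4h, Pla2g4a, Ptges and Ptgs2 that had not passed. Of 305 values of other named genes, 259 kept their call, 46 lost it, and 0 changed sign. Within slide column 1 these included Fpr2, Hpgds, Pla2g16, Ptger2 and Ptger4.

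The other eicosanoid genes higher were 5 within slide column 1 and 10 to 12 when 1 mouse was left out. Those lower were 10 with normexp, 7 with an intensity trend, 11 with the methods' test unadjusted, 1 with the replicate block, 0 without the filter on dim probes, 0 with the slide column as a block, 0 within slide column 1, and 0 to 6 when 1 mouse was left out. Ptgr2, Abcc1 and Cyp2j5 each lost their call in at least 10 alternatives, 5 or 6 of them with a mouse left out, and Ptgir in 7.

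Over all probes, 2606 were higher and 2462 lower. Higher were 1458 with the slide column as a block, 1116 within slide column 1, 1736 with the methods' test adjusted, and 1958 to 2370 when 1 mouse was left out. Lower were 4498 with normexp, 1093 without the filter, 463 with the slide column as a block, 315 within slide column 1, 1117 with the replicate block, 7175 and 1385 with the methods' test unadjusted and adjusted, and 760 to 2269 when 1 mouse was left out. The cause of these moves was not tested. The sample titles give no pairing by replicate number, so the replicate block is only a check, and it kept 2 members higher. Deviations of same-numbered MRL and LPR arrays correlated at 0.12, 0.02 and 0.01, and those of other MRL and LPR pairs at -0.07 to 0.05. So few arrays cannot settle whether the numbers pair the mice. Scalings left the median change of all tested probes between -0.11 and -0.14.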
